A study of Mus musculus with 16 samples.

Results

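The Cdh1-depleted liver was followed here from 1 to 3 weeks after birth, over 5 livers of the 16 profiled: 2 at 1 week and 3 at 3 weeks, chosen by the genotype label that carries the Cre transgene. The product of Cdh1 is E-cadherin, which holds neighbouring epithelial cells together at adherens junctions. All 16 mice were male and homozygous for a floxed Cdh1 gene (fl/fl). The Cre mice carried the transgene named cdh1albcre (genotype +/wt), read here as Cre driven by the albumin promoter, which is active in hepatocytes and their precursors. Control livers came from littermates with the same floxed gene and no Cre (wt/wt), again 2 at 1 week and 3 at 3 weeks. A further 3 Cre and 3 control livers of 6 weeks entered the tests of change only through their spread. They also counted in the choice of probes and in the principal components. Chow was withheld for 6 hours before dissection, from the same hour of the morning, and RNA came from a central piece of the left lobe. Without mice that carried Cre and an unfloxed Cdh1 gene, the effects of Cre itself and of Cdh1 loss cannot be told apart. The question was which steps of the liver's postnatal maturation proceed in the Cdh1-depleted livers. The arrays read RNA, and E-cadherin protein was not measured.

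As background, the liver of a newborn mouse is still a site of blood formation, its hepatocytes divide, and it expresses fetal genes such as alpha-fetoprotein and the imprinted growth factors. During the suckling period and towards weaning the blood-forming cells leave, proliferation slows, fetal genes are silenced, and hepatocytes acquire their enzymes for drug, amino acid, lipid and bile acid metabolism. Sex-dependent genes driven by the pattern of growth hormone release follow later, around puberty.

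Each level is the log2 of the array's processed signal minus the 75th percentile of that array, so 0 is the level exceeded by one spot in 4. Levels can be compared between livers for 1 gene, not between genes. In total 17313 named genes were tested. Between 74.1% and 79.1% of the spots of the 5 Cre arrays were well above background. Cre arrays of the same age correlated at 0.986 or more, and those of different ages between 0.947 and 0.955. On the first principal component of all 16 arrays, which held 66.9% of the variance, the Cre livers lay at -107.3 and -108.2 at 1 week and at 1.8, -1.4 and -4.5 at 3 weeks. The control livers lay at -112.2 and -110.2 and then at 16.2, 12.6 and 21.8. The 3-week Cre livers therefore lay between the 1-week livers and the 3-week control livers on this axis. The 2 Cre arrays of 1 week lay on slide 1, as were 2 of those of 3 weeks. The third 3-week Cre array lay on slide 2, and both control arrays of 1 week lay on slide 2. The number of mice limits the precision, and p-values measure the spread between mice. A gene is said to have risen or fallen where its change passed limma's moderated test at an adjusted p under 0.05, with Benjamini-Hochberg adjustment over all genes.

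Cdh1 itself was lower at 3 weeks than at 1 week. Its level was 1.10 and 1.04 in the Cre livers of 1 week and -1.58, -2.56 and -0.60 in those of 3 weeks, with no overlap, a change of -2.65 ± 0.39 (log2 ± SE, 6.28-fold, adjusted p = 0.000198). In control livers it was 2.10 and 2.22 at 1 week and 0.69, 0.59 and 0.76 at 3 weeks, a change of -1.48 (adjusted p = 0.008). Every Cre liver was below every control liver of its age. The fall in the Cre livers was larger by 1.17, which did not pass the test of the difference (unadjusted p = 0.056, adjusted p = 0.499). No source used here says whether the Cdh1 probe lies inside the deleted part. Cdh2, which encodes N-cadherin, the other classical cadherin of hepatocytes, was at 3.51 and 3.33 and then at 3.72, 3.78 and 3.61 (change 0.29 ± 0.10, adjusted p = 0.042, against 0.61 in control livers). The defining genes of the tissue were well above background in all 5 livers: albumin, Alb, lay between 9.72 and 10.09 and transthyretin, Ttr, between 8.69 and 8.94.

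A large share of the measured genes changed with age in the Cre livers. Of the 17313 genes, 3708 (21.4%) rose and 3307 (19.1%) fell at an adjusted p under 0.05. Changes of at least 2-fold were found in 1084 risen genes (6.26%) and 1541 fallen genes (8.9%). In control livers 4751 genes (27.4%) rose and 3809 (22%) fell. Of the genes that rose in Cre livers, 3083 also rose in controls, which is 83.1% of the Cre and 64.9% of the control calls. Of those that fell, 2682 also fell in controls, 81.1% and 70.4% of the calls. Only 2 of the risen and 3 of the fallen genes were called in the opposite direction in controls. The median size of the change over all genes was 0.38 in Cre and 0.45 in control livers, and the signed medians were 0.06 and 0.11. Mice 2 and 3 of the 3-week Cre livers shared the first part of their names with 1-week mouse 2, read here as a litter name, which is an inference. Within these 3 Cre mice, with a single liver at 1 week, 1991 genes rose and 1807 fell. Where a list's count of 3 or more fell by over 1.5 times within the litter, that value is given too. Controls of that name were mouse 2 of 1 week and mouse 3 of 3 weeks, a single liver at each age. Counts of differences from controls within the litter can therefore fall through the loss of mice alone.

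The test of the difference itself, whether a gene's change with age differed between Cre and control livers, called 0 of 17313 genes (0%), with a smallest adjusted p of 0.298. At an unadjusted p under 0.05, 775 genes (4.48%) had a higher change in Cre livers and 983 (5.68%) a lower one. The share of all genes above or below their control change, whatever the p, was not counted. Statements below that set Cre beside control changes are therefore descriptions, with the unadjusted p where a gene is named. With slide as a block in the fit, 1428 genes had an unadjusted p under 0.05, against 1758 without it. Since both control arrays of 1 week lay on the other slide than the Cre arrays of that age, a difference between the groups at 1 week and a difference between slides can be separated only through the older arrays.

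**Figure D1:**
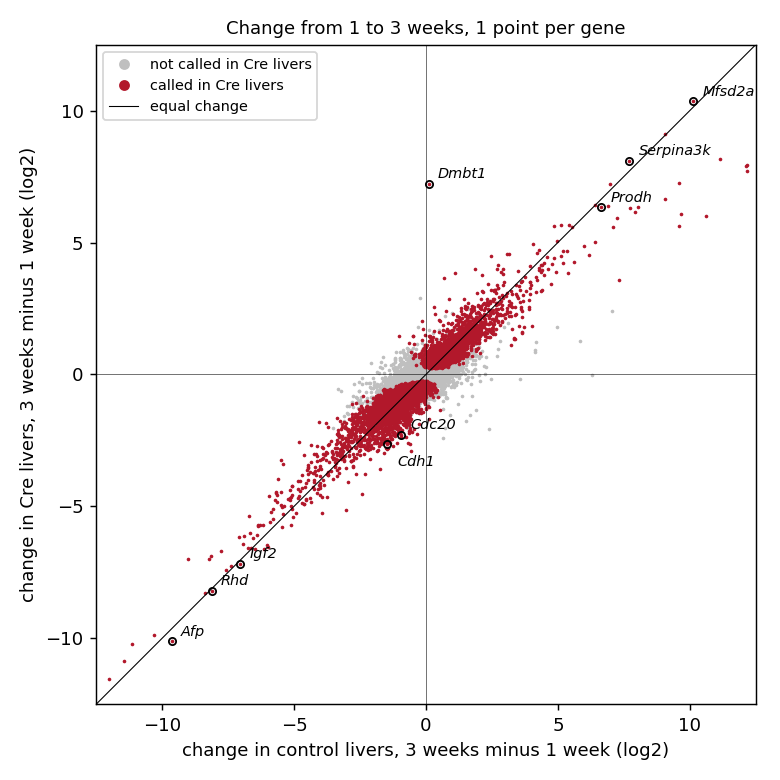
Change from 1 to 3 weeks in control livers (horizontal axis) and in Cre livers (vertical axis), both as log2 differences of group means, with 1 point for each of the 17313 genes and the line of equal change. Genes called in Cre livers are red. Afp, Igf2 and Rhd lie at the lower left and Mfsd2a and Serpina3k at the upper right, close to the line, while Dmbt1 lies far above it. Mfsd2a and Dmbt1 include livers not well above background, so their places are approximate.

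Most fetal genes fell in the Cre livers by 3 weeks. Of 25 fetal liver genes tested, 18 fell and 1 rose, the rise being that of the glycolytic enzyme gene Aldoa, and the list had a median of -2.11 against -2.25 in control livers and 0.06 over all genes. The alpha-fetoprotein gene Afp, the classical serum protein gene of the fetal liver, stood at 8.95 and 8.96 at 1 week and at -1.44, -1.74 and -0.26 at 3 weeks. Its change of -10.10 ± 0.35 (1098-fold, adjusted p = 9.66e-10) lay beside -9.64 in control livers. In the same livers 2 genes for repressors known to act on Afp rose: Zbtb20 from 1.79 and 1.71 to 3.21, 3.50 and 3.13 (1.53 ± 0.15) and Zhx2, well above background in 1 of the 2 younger livers, by 1.27 ± 0.34 (adjusted p = 0.01). Whether these rises had a part in the fall of Afp was not tested. The Afp promoter is shown because this gene had the largest fall among the fetal genes. It is given from 250 bases before to 50 bases after the start, on the plus strand of chr5:90490464-90490763 (GRCm38.p6, RefSeq). Capitals mark GTTAAT, a part of the recognition site of the hepatocyte factor HNF1, searched on both strands and present in 7.1% of 32851 such promoters.
Afp: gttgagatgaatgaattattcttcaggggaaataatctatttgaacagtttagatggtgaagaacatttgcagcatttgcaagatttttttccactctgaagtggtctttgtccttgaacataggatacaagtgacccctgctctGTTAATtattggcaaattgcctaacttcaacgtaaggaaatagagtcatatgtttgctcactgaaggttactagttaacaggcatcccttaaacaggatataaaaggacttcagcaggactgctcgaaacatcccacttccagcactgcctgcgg

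Imprinted growth genes fell too. Of 18 tested, 14 fell and 2 rose, with a median of -2.44 against -3.30 in control livers. The fetal insulin-like growth factor gene Igf2 fell from 3.69 and 4.24 to -3.21, -3.22 and -3.21, by 7.18 ± 0.17 (145-fold, adjusted p = 2.83e-11), against a change of -7.03 in controls. Dlk1, a membrane protein of immature hepatoblasts, fell by 5.60 ± 0.25 and the noncoding RNA Meg3 from the same imprinted domain by 5.48 ± 0.24. Mest, Grb10 and the cell cycle inhibitor gene Cdkn1c fell by 4.00 ± 0.32, 3.50 ± 0.30 and 3.62 ± 0.32. The 2 that rose were the proteoglycan gene Dcn (0.74 ± 0.12) and the amino acid transporter gene Slc38a4 (0.89 ± 0.22). For Afp and each of the fallen imprinted genes named here, the Cre and control changes differed by less than 2 standard errors of the difference. Bex1, a brain-expressed X-linked gene of the fetal list, fell from 3.59 and 3.93 to 1.87, 0.01 and 1.73 (change -2.56 ± 0.51, adjusted p = 0.002) against a change of -4.80 in control livers (difference 2.24 ± 0.72, unadjusted p = 0.009, adjusted p = 0.411).

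Most genes of blood formation fell. Of 28 erythroid genes tested 21 fell and 1 rose (median -2.24, control -2.59), of 15 neutrophil and granule genes 13 fell and none rose (median -4.64, control -5.17), and of 9 megakaryocyte and platelet genes 7 fell and 1 rose (median -2.57, control -2.18). Gata1, the master transcription factor of red cell precursors, went from 0.50 and 1.39 to -5.23, -4.85 and -6.67 (change -6.53 ± 0.54, adjusted p = 2.63e-06). The Rh blood group gene Rhd fell by 8.19 ± 0.65, the Kell blood group gene Kel by 6.44 ± 0.54 and the membrane skeleton gene Epb42 by at least 33.6-fold, since Epb42 was not well above background in any 3-week Cre liver. Gata1, Rhd and Kel were well above background in 2 of those 3 livers. The antimicrobial granule genes Camp (-6.00 ± 0.26), Ltf (-6.71 ± 0.55) and Mpo (-6.14 ± 0.67) and the calcium-binding S100a8 followed. S100a8 was at 6.36 and 6.76 at 1 week and at 0.61, 0.92 and -0.27 at 3 weeks. Pf4 and Ppbp, chemokines of platelets, fell by 3.35 ± 0.34 and 5.25 ± 0.53. In a bulk sample, fewer cells of a type and less RNA per cell cannot be told apart.

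Some blood genes were not called. The globin genes Hba-a1 (8.37 and 8.93, then 8.54, 7.92 and 7.96) and Hbb-bt (8.12 and 8.87, then 7.94, 7.23 and 7.31) did not pass the test in the Cre livers (adjusted p = 0.327 and 0.111). The log2 summed signal of the whole erythroid list, which includes these globins, lay between 10.13 and 10.85 in the 5 livers, whereas that of the neutrophil list was 8.79 and 9.10 at 1 week and between 4.40 and 4.89 at 3 weeks. Hemgn, listed as a blood-forming gene, rose in both genotypes, by 1.08 ± 0.15 and 1.26. The neutrophil genes Elane and Lcn2 were not called, Lcn2 being at 1.40, 3.43 and 2.75 in the 3-week Cre livers against 1.28, 1.00 and 1.02 in the controls. The 3 largest measured falls of all genes were those of the stefin genes Stfa1, Cstdc5 and Cstdc4, which encode cysteine protease inhibitors. Stfa1 went from 6.42 and 6.68 to -4.20, -5.47 and -5.35 (change -11.56 ± 0.40, control -12.02), and Cstdc5 and Stfa3 fell by 10.85 ± 0.31 and 8.28 ± 0.23. The family has near-identical copies, so a probe may read more than 1 member. Among genes below background in all 3-week Cre livers, the granulocyte genes Itgb2l, Ms4a3 and Fcnb fell at least 74.5-fold, 46.9-fold and 35.8-fold.

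Of 20 B and T cell genes 6 fell (30%, against 19.1% of all genes) and none rose (median -0.22, control -0.999). Without 1-week mouse 1, 4 fell. The fallen genes included Vpreb1, a surrogate light chain gene of pre-B cells, by 4.72 ± 0.45, and its partner Igll1 by at least 15.1-fold. The B cell factor gene Ebf1 fell by 1.77 ± 0.43 (adjusted p = 0.006) and the T cell receptor complex gene Cd3g by 0.85 ± 0.31 (adjusted p = 0.043).

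**Figure D2:**
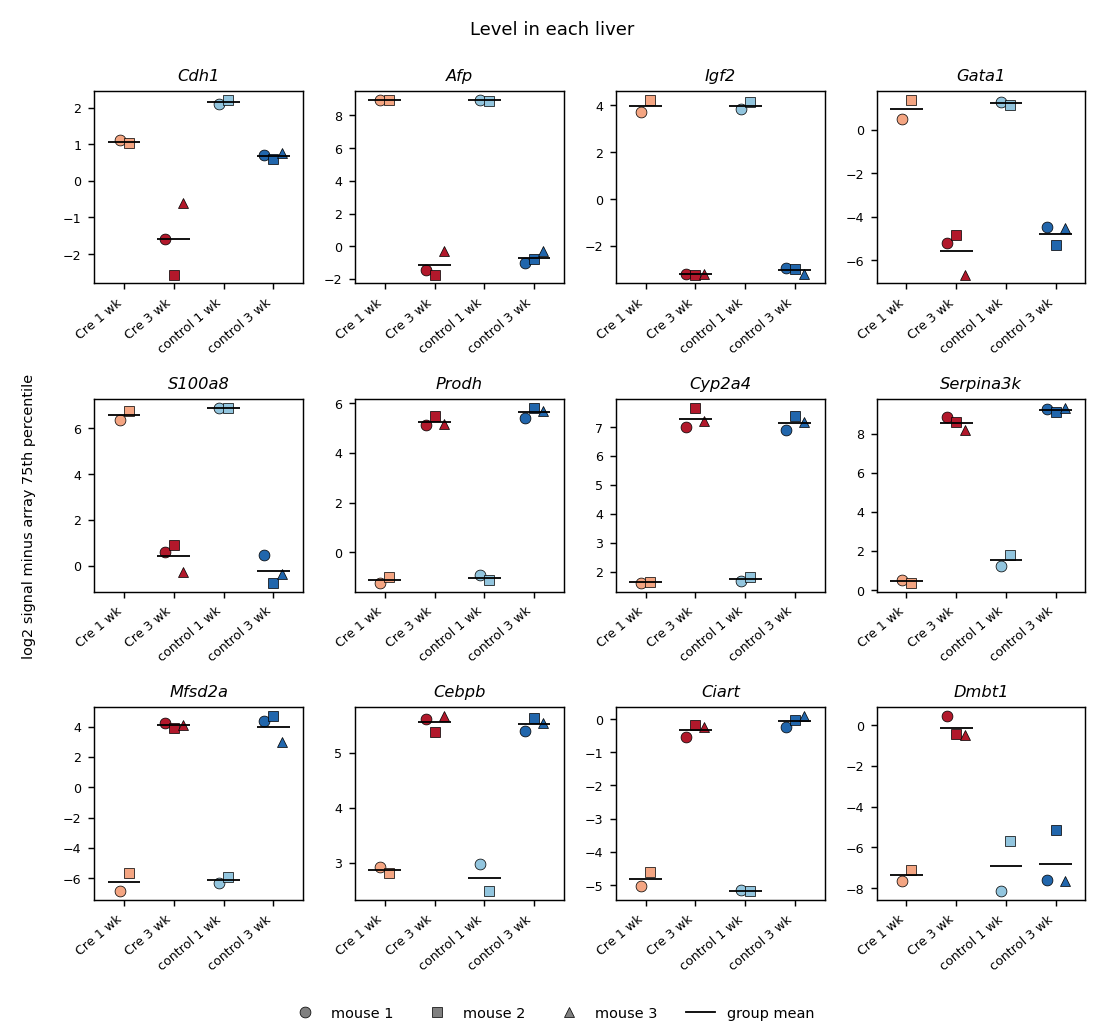
Level of 12 genes in each Cre and control liver of 1 and 3 weeks (log2 signal minus the array's 75th percentile; symbols are mice, lines are group means). Cdh1, Afp, Igf2, Gata1 and S100a8 are lower in every 3-week liver than in every 1-week liver of the same genotype; Prodh, Cyp2a4, Serpina3k, Mfsd2a, Cebpb and Ciart are higher; Dmbt1 is high only in the 3-week Cre livers.

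Of the genes that rose, the largest change belonged to Mfsd2a, a transporter of lysophosphatidylcholine, which was at -6.85 and -5.68 at 1 week and at 4.27, 3.92 and 4.10 at 3 weeks. This was a change of 10.36 ± 0.65 (1315-fold, adjusted p = 2.5e-07). Mfsd2a was well above background in 1 of the 2 Cre livers and in neither control liver of 1 week, so no size is given for the control rise. The serpin gene Serpina3k rose from 0.52 and 0.37 to 8.85, 8.60 and 8.19 (8.10 ± 0.20, control 7.71). In both genes the Cre livers of the 2 ages were far apart, and for Serpina3k the Cre and control changes differed by less than 2 standard errors. Only a lower bound can be given for genes not well above background in the Cre livers of 1 week: Cpsf4l rose at least 102-fold and Slc10a6, a transporter of steroid sulphates, at least 22.7-fold.

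Of 50 genes of amino acid breakdown and the urea cycle 33 rose and 5 fell, with a median of 1.08 against 1.26 in controls, and 19 rose within the litter. The proline oxidase gene Prodh was at -1.22 and -0.98 at 1 week and at 5.12, 5.46 and 5.15 at 3 weeks (6.34 ± 0.14, 81.2-fold, adjusted p = 1.92e-11, control 6.65). The tryptophan-degrading enzyme gene Tdo2 rose by 4.16 ± 0.37, arginase, Arg1, by 2.69 ± 0.30, and Gnmt, which consumes methyl groups of methionine, by 2.65 ± 0.30. The glycine cleavage genes Amt and Gcsh went the other way, with changes of -1.68 ± 0.28 and -0.57 ± 0.11, as did Bhmt2 (-0.41 ± 0.13, control 0.27). Of 27 genes of gluconeogenesis and glycogen, 15 rose and 3 fell. The alanine transaminase gene Gpt rose from 1.02 and 2.12 to 6.38, 6.10 and 6.24 (4.68 ± 0.30), the tyrosine transaminase gene Tat by 3.95 ± 0.47 and Pck1, which catalyses the committing step of gluconeogenesis, by 1.81 ± 0.24. These enzymes were lower in every 1-week than in every 3-week Cre liver.

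Of 41 genes of fatty acid oxidation and ketone bodies 28 rose and 3 fell (median 1.00, control 0.81). Without 1-week mouse 2, 18 rose. The fasting-induced lipase inhibitor gene Angptl4 rose from 4.03 and 3.51 to 6.55, 6.50 and 6.80 (2.84 ± 0.20) and the thioesterase gene Acot1 by 4.95 ± 0.49. The ketone body dehydrogenase gene Bdh1 and the thiolase gene Acat1 fell, by 1.27 ± 0.16 and 1.04 ± 0.14. Suckling mice live on a milk diet rich in fat, and solid chow brings carbohydrate.

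Of 34 lipogenesis genes 14 rose and 4 fell (median 0.45, control 0.70), and 2 fell without 1-week mouse 2 or within the litter. The phosphatidate phosphatase gene Lpin1 went from -1.43 and -0.83 to 4.41, 4.46 and 4.51 (5.59 ± 0.35, control 5.52), and the acetyl-CoA carboxylase gene Acacb rose by 4.23 ± 0.33. The desaturase gene Scd1 was at -1.84 and -0.63 and then at 5.36, 3.97 and 6.01, a rise of 6.35 ± 0.55 against 8.02 in controls (difference -1.67 ± 0.77, unadjusted p = 0.05). Acss2, which makes acetyl-CoA from acetate, rose by 2.19 ± 0.32 against 3.62 (unadjusted p = 0.008). Of 26 cholesterol synthesis genes 5 rose (19.2%, against 21.4% of all genes) and 2 fell (7.69%, against 19.1%) in Cre livers, with a median of -0.12. In controls 12 rose and none fell, with a median of 0.49, where 27.4% of all genes rose and 22% fell. In 25 of the 26 the Cre change was below the control change. Of these, 6 had an unadjusted p under 0.05, against 5.68% of all genes. That count was 0 without control mouse 1 of 1 week, 1 without Cre mouse 2 of 1 week and 3 without control mouse 3 of 3 weeks. The 5 that rose were 3 without any 1 of the Cre mice except 3-week mouse 2, 3 with litter as a block and 1 within the litter. The 2 that fell were 0 without 1-week mouse 1, 1-week mouse 2 or 3-week mouse 1, 1 without 3-week mouse 2 or 3 or within the litter, and 4 with litter as a block or quantile normalization. The mevalonate kinase gene Mvk fell in Cre livers (3.22 and 3.40, then 2.52, 2.69 and 2.49; -0.75 ± 0.27, control 0.23, difference unadjusted p = 0.026), as did Hmgcs1 (-1.42 ± 0.45, control -0.38). The late enzyme genes Ebp and Hsd17b7 rose by 1.05 ± 0.20 and 1.20 ± 0.26.

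Genes of drug metabolism mostly rose. Of 49 cytochrome P450 genes 30 rose and 1 fell (61.2% and 2.04%, against 21.4% and 19.1% of all genes; median 1.29, control 1.71). Cyp2a4, a steroid hydroxylase, rose from 1.61 and 1.64 to 6.99, 7.67 and 7.22 (5.67 ± 0.22, control 5.41). Por, which passes electrons to all microsomal P450 enzymes, rose by 2.28 ± 0.23 and the main ethanol-metabolising enzyme gene Cyp2e1 by 0.95 ± 0.13. Cyp3a44, a female-biased gene, was the gene that fell, from 4.96 and 4.97 to 1.05, 1.78 and 3.96. Of 61 phase II conjugation genes 37 rose and 1 fell (median 0.93, control 1.33), including the glucuronosyltransferase gene Ugt2a3 (2.63 ± 0.17) and the glutathione transferase gene Gstm2 (2.54 ± 0.29, control 3.39). In 51 of these 61 the rise was smaller, or the fall larger, than in controls. Of these, 13 had an unadjusted p under 0.05, against 5.68% of all genes. No member had a higher change at that p. Members of the Cyp2c, Cyp3a and Ugt2b families are near-identical, and their probes may read each other.

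In bile acid synthesis and conjugation 9 of 19 genes rose and 1 fell (median 0.86, control 0.93). The sterol 27-hydroxylase gene Cyp27a1 was at -0.55 and -0.49 and then at 2.91, 2.98 and 3.05, a rise of 3.50 ± 0.15 against 3.93. Baat, which conjugates bile acids to taurine and glycine, rose by 3.02 ± 0.19. Cyp7a1, the rate-limiting enzyme of the pathway, was at 1.55 and 1.11 at 1 week and at 1.73, 2.97 and 1.87 at 3 weeks and did not pass the test (0.86 ± 0.36, adjusted p = 0.073, control 1.38 with adjusted p = 0.007). Of 24 transporters 8 rose and 3 fell, with 5 falling without 3-week mouse 2 and none within the litter. The organic anion uptake transporter genes Slco1a4 and Slco2b1 rose by 4.03 ± 0.25 and 4.24 ± 0.31, and the canalicular export pumps Abcc2 and Abcb4 by 0.97 ± 0.11 and 1.34 ± 0.20.

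**Figure D3:**
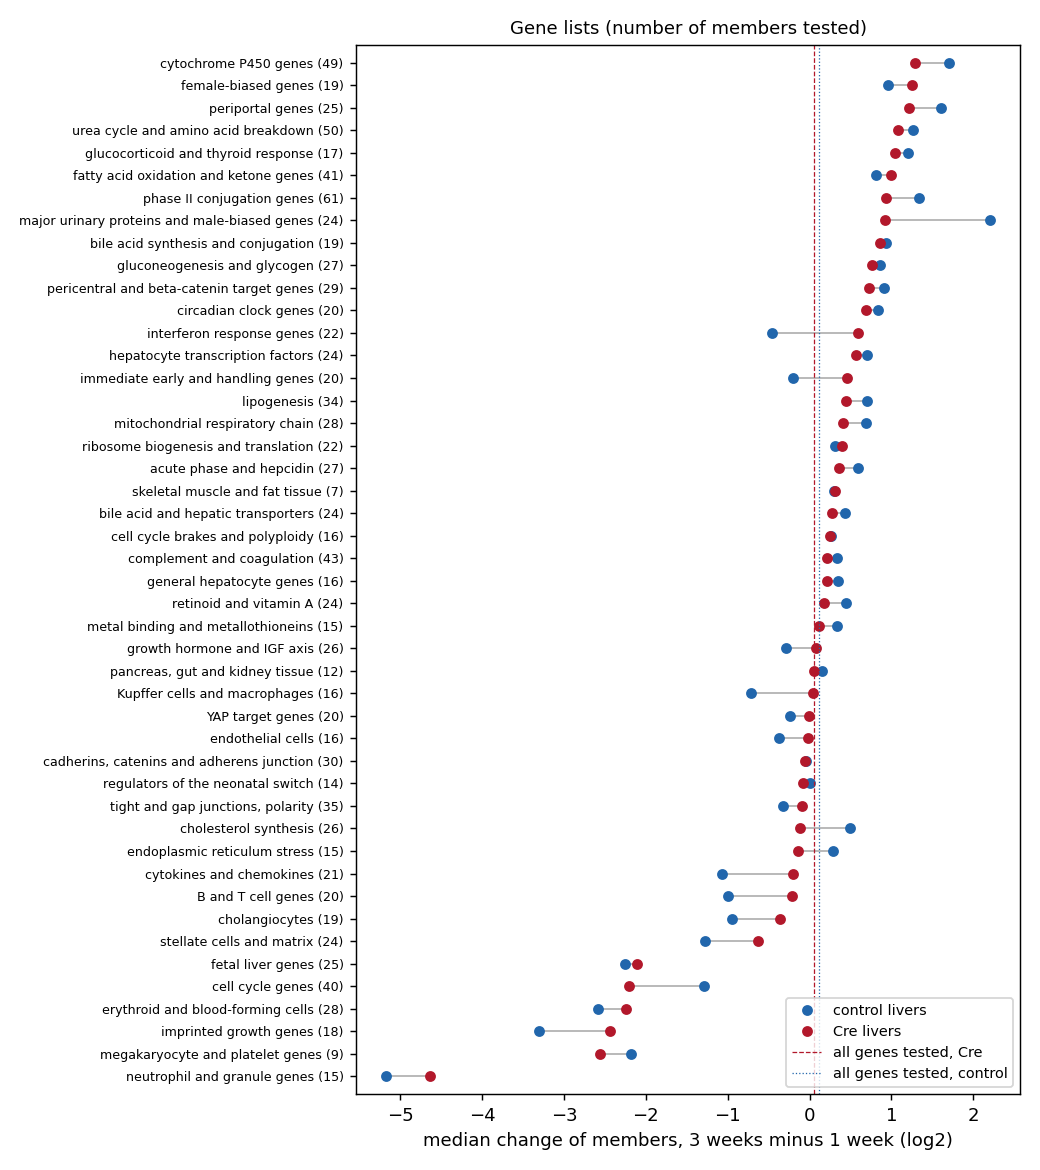
Median change from 1 to 3 weeks (log2) of the tested members of 46 gene lists, in Cre livers (red) and control livers (blue), ordered by the Cre value; the number of members is in parentheses and the vertical lines give the medians over all genes, 0.06 and 0.11. P450, female-biased and periportal genes lie at 1.29, 1.26 and 1.22 and neutrophil genes lowest at -4.64 in Cre livers; interferon response genes lie at 0.59 in Cre and -0.46 in control livers.

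Of 24 hepatocyte transcription factor genes 13 rose and 1 fell (median 0.57, control 0.70). Cebpb, a factor of gluconeogenesis and regeneration, went from 2.92 and 2.81 to 5.62, 5.38 and 5.67 (2.69 ± 0.24, control 2.80). The xenobiotic receptor gene Nr1i2 rose by 1.44 ± 0.15, the bile acid receptor gene Nr1h4 by 1.03 ± 0.14 and the fatty acid receptor gene Ppara by 0.80 ± 0.13, while Foxa3 fell by 0.64 ± 0.23. Of 17 genes of the glucocorticoid and thyroid hormone responses 10 rose and 1 fell. Klf9, a target of both hormones, rose from 0.05 and 0.16 to 3.60, 3.01 and 3.24 (3.18 ± 0.17, control 3.23). Of 20 circadian clock genes 11 rose and none fell (median 0.69, control 0.83). Ciart, a repressor of the clock, was at -5.01 and -4.61 and then at -0.55, -0.17 and -0.24 (4.49 ± 0.19, control 5.11), and Per1 rose by 2.27 ± 0.20.

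In the growth hormone and IGF axis 3 of 26 genes rose (11.5%, against 21.4% of all genes) and 7 fell (26.9%, against 19.1%). Without 1-week mouse 1, or within the litter, 3 fell, and without 3-week mouse 1, 5 rose. Igf1, the main growth hormone-dependent factor of the liver, rose from 4.35 and 4.78 to 6.23, 6.03 and 6.01 (1.53 ± 0.16, control 1.94). The leukaemia inhibitory factor receptor gene Lifr rose by 1.40 ± 0.22 against 2.44 in controls (unadjusted p = 0.006), and the binding protein gene Igfbp2 fell by 1.06 ± 0.24. Among regulators of the switch from neonatal to adult expression, 4 of 14 rose (28.6%) and 5 fell (35.7%). The chromatin silencer gene Ezh2 fell by 1.32 ± 0.14, the RNA-binding Lin28b, which blocks let-7 maturation and was well above background in 2 of the 3 older livers, by 2.11 ± 0.43, and Zbtb16 rose by 3.93 ± 0.39.

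Genes of the liver zones were called in both directions. Of 25 periportal genes 15 rose (60%, against 21.4% of all genes) and 2 fell, the latter being Cdh1 and Sox9. Within the litter 9 rose. The periportal median was 1.22 against 1.61 in controls, and 1.88 without 3-week mouse 2. The median difference from controls was -0.29, and it was 0.11 without 3-week Cre mouse 2, 0.05 without 1-week Cre mouse 2 and 0.0 without control mouse 1 of 1 week, so its sign rested on single mice. The carbamoyl phosphate synthase gene Cps1 rose by 2.31 ± 0.30 and Cyp2f2 by 3.05 ± 0.33. Of 29 pericentral and beta-catenin target genes 14 rose (48.3%) and 8 fell (27.6%, against 19.1% of all genes), with a median of 0.72 against 0.91 in controls. Glutamine synthetase, Glul, went from 4.37 and 3.88 to 4.83, 5.77 and 5.23 (1.16 ± 0.30, adjusted p = 0.008, control 1.49). The ornithine aminotransferase gene Oat and the glutamate transporter gene Slc1a2 rose by 2.92 ± 0.35 and 4.19 ± 0.25. The Wnt feedback genes Tcf7, Lgr5, Nkd1 and Rnf43 fell, by 1.50 ± 0.23, 2.05 ± 0.42, 0.71 ± 0.20 and 1.42 ± 0.40, against changes of -1.37, -1.78, -0.56 and -1.27 in controls. The count of fallen pericentral genes was 4 without 1-week mouse 1, 5 without 1-week mouse 2 and 3 within the litter. Aldh1a1, which oxidises retinal, rose by 3.83 ± 0.33 against 5.37 in controls (unadjusted p = 0.006).

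Of 28 respiratory chain genes 19 rose and none fell (median 0.41, control 0.68), for example Cox5a by 0.82 ± 0.12. This count was 9 and 12 without 1-week mouse 1 or 2, 10 within slides or with litter as a block, 7 with quantile normalization and 2 within the litter. Of 22 genes of ribosome biogenesis and translation 11 rose and none fell, with 6 rising without either 1-week mouse, 5 within slides and 3 within the litter. Secreted liver proteins were mixed: among 43 complement and coagulation genes 16 rose and 3 fell, with 8 and 10 rising without 1-week mouse 1 or 2, 9 within slides and 5 within the litter, and 5 rising and 10 falling with quantile normalization. The factor IX gene F9 rose by 1.08 ± 0.13 and the factor XI gene F11 fell by 1.40 ± 0.24. Of 27 acute phase genes 12 rose and 1 fell. Orm1, which encodes an acid glycoprotein of the blood, rose from -4.19 and -3.54 to 1.96, 3.38 and 1.57 (6.17 ± 0.44, control 7.92, difference unadjusted p = 0.015). Of 16 general hepatocyte genes 3 rose and none fell, with 1 rising without 1-week mouse 2, within slides or within the litter and 6 without 3-week mouse 2; with quantile normalization 1 rose and 3 fell. The 3 risen general hepatocyte genes were 18.8% of the list, against 21.4% of all genes. The apolipoprotein gene Apoc3 rose by 3.51 ± 0.16, and Alb (0.24 ± 0.11, adjusted p = 0.087) did not pass the test.

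Of 30 genes of cadherins, catenins and the adherens junction, the partners of E-cadherin, 4 rose and 3 fell. These shares of 13.3% and 10% lay below the 21.4% and 19.1% of all genes. The rising genes were 2, 1 and 2 without 1-week mouse 1, 1-week mouse 2 or 3-week mouse 2, and 2 within the litter or with litter as a block. With quantile normalization 2 rose and 8 fell, and with normexp background correction 7 rose and 5 fell. Besides Cdh1 the fallen genes were the actin linker gene Vcl (-1.01 ± 0.18) and the placental cadherin gene Cdh3 (-1.53 ± 0.48). The beta-catenin gene Ctnnb1 was at 3.21 and 3.24 and then at 2.72, 3.16 and 2.97 (adjusted p = 0.093). Of 35 tight junction, gap junction and polarity genes 13 fell (37.1%) and 6 rose (17.1%). Those that rose were 3, 2 and 3 without 1-week mouse 1, 1-week mouse 2 or 3-week mouse 3, 2 within slides or with litter as a block and 3 with quantile normalization, and within the litter 7 fell and 3 rose. Cldn3 fell from 4.92 and 5.08 to 3.80, 3.90 and 3.85 (-1.15 ± 0.15, control -0.80), Cldn1 by 2.19 ± 0.31 and the junction plaque gene Cgn by 1.04 ± 0.14. The gap junction gene Gjb2 rose by 1.03 ± 0.18. Vcl, Cdh3, Cldn3, Cldn1 and Cgn also fell in controls. Of 20 target genes of YAP, a regulator of organ size that responds to cell contact, 6 rose and 3 fell, and 3 rose without 1-week mouse 2. The YAP shares of 30% risen and 15% fallen lay beside 21.4% and 19.1% of all genes, with a median change of -0.002. The connective tissue growth factor gene Ccn2 rose from -0.19 and -0.81 to 2.77, 3.33 and 2.54 (3.38 ± 0.43, control 2.70, difference unadjusted p = 0.291), and Birc5, which is also a mitotic gene, fell by 2.23 ± 0.28.

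Markers of the other liver cells were followed on the same arrays, beside 21.4% of all genes that rose and 19.1% that fell. Of 24 stellate cell and matrix genes 11 fell and 2 rose (median -0.63, control -1.27), with 6, 5 and 7 falling without 1-week mouse 1, 1-week mouse 2 or 3-week mouse 1, 7 with litter as a block and 4 within the litter. The contractile gene Acta2 fell from 2.02 and 2.24 to 0.44, 0.46 and 0.33 (-1.72 ± 0.23). In 23 of the 24 the change was higher in Cre than in control livers. Only 1 had an unadjusted p under 0.05, near the 4.48% of all genes. Of 16 endothelial genes 4 rose and 2 fell, all by less than 2-fold; the falls were 1 without 1-week mouse 1, 1-week mouse 2 or 3-week mouse 1, 4 without 3-week mouse 3 and none within the litter, and with quantile normalization 2 rose and 6 fell. Of 19 cholangiocyte genes 6 fell (31.6%), or 3 within the litter, and 1 rose. Cd24a, a surface protein gene of this list, fell by 3.65 ± 0.39 and the biliary transcription factor gene Sox9 by 1.15 ± 0.28. Which cells the fall of Cd24a came from was not tested.

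The cholangiocyte gene that rose was Dmbt1, a secreted scavenger receptor protein of ductal epithelia. It was at -7.64 and -7.11 at 1 week, not well above background, and at 0.45, -0.42 and -0.46 at 3 weeks, a rise of at least 73.7-fold (adjusted p = 0.000868). In control livers, where it was well above background in 1 liver of each age, it was at -8.14 and -5.66 and then at -7.58, -5.16 and -7.66. The 3 Cre livers of 3 weeks lay above all other livers of these ages. The size of the difference between the genotypes' changes is not given, since it would rest on levels not well above background. The log2 summed signal of the whole cholangiocyte list was 6.48 and 6.65 in the Cre livers of 1 week and between 5.86 and 6.22 in those of 3 weeks, and between 5.84 and 6.12 in control livers of 3 weeks. The part of biliary cell number in the Dmbt1 level was not tested.

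Proliferation genes fell in the Cre livers. Of 40 cell cycle genes 37 fell (92.5%, against 19.1% of all genes) and none rose, with a median change of -2.20 against -1.28 in controls, where 37 fell as well. Cyclin A2, Ccna2, was at 2.48 and 2.49 at 1 week and at 0.00, -0.10 and -0.15 at 3 weeks (-2.57 ± 0.22, 5.94-fold, adjusted p = 2.99e-06). The mitotic cyclin gene Ccnb2 fell from 3.16 in both 1-week livers to 1.05, 0.84 and 0.83 (-2.26 ± 0.23), and Cdc20, an activator of the anaphase-promoting complex, from 3.11 and 2.94 to 1.04, 0.61 and 0.59 (-2.28 ± 0.25). The proliferation marker Mki67 fell by 2.71 ± 0.30 and the replication licensing genes Mcm2 and Mcm7 by 2.45 ± 0.33 and 1.26 ± 0.13. Cyclin D1, Ccnd1, (3.71 and 3.55, then 1.35, 3.50 and 2.50) and the genes E2f8 and Tyms did not pass. Leaving out any 1 Cre mouse left 36 to 38 fallen genes.

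Promoters of the mitotic genes are shown for Ccnb2 and Cdc20, which fell together and are known targets of cell cycle-dependent repression through the CHR element and the CCAAT box. Capitals mark TTTGAA, the core of the CHR element, and CCAAT, both searched on either strand. Each sequence runs from 250 bases before to 50 bases after the start on the minus strand (GRCm38.p6, RefSeq), at chr9:70421505-70421804 for Ccnb2 and chr4:118437294-118437593 for Cdc20.
Ccnb2: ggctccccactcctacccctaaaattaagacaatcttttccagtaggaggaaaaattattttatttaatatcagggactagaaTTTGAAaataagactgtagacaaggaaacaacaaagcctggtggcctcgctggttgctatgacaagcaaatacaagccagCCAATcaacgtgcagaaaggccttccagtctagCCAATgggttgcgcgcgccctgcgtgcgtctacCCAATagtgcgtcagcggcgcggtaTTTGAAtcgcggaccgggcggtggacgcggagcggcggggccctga
Cdc20: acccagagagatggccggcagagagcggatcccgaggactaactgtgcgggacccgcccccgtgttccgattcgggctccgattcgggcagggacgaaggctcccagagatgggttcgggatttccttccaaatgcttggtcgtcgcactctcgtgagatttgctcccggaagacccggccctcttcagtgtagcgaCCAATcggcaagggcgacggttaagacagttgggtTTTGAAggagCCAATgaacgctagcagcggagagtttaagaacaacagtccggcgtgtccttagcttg
The Ccnb2 promoter held 2 TTTGAA and 3 CCAAT, and that of Cdc20 held 1 and 2. Promoters were found for 28 of the 37 fallen cell cycle genes, 30 promoters in all, and 46.7% of them held TTTGAA and 86.7% CCAAT. Over all 32851 promoters the shares were 17.9% and 37.4%. Among the 93 promoters of the 100 genes with the largest rise the shares were 17.2% and 43%, and among the 88 of the 100 with the largest fall 15.9% and 38.6%. A match is a description of the letters only.

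The median level of the list was 2.20 and 2.10 in the Cre and 1.84 and 2.31 in the control livers of 1 week, which overlap, and 0.22, 0.01 and -0.16 against 0.86, 0.96 and 0.85 at 3 weeks, which do not. In 39 of 40 genes the change was lower in Cre livers, and in 20 the difference had an unadjusted p under 0.05, all of them lower, against 5.68% of all genes. Cdc20 had a difference of -1.35 ± 0.35 (unadjusted p = 0.002), Ccna2 of -1.14 ± 0.31 (0.003), Ccnb2 of -1.12 ± 0.32 (0.004) and the transcription factor gene Foxm1, which drives mitotic genes, of -0.82 ± 0.24 (0.005). None of these passed the adjustment over all genes (adjusted p = 0.411). The count of 20 was 16 with slide as a block, 12 within slides, 10 and 13 without Cre mouse 1 or 2 of 1 week, and 13 without 3-week Cre mouse 3 or 3-week control mouse 2. It was 6 within the litter, and 5 without control mouse 1 of 1 week, and the median difference was then -0.62 in place of -0.75.

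Genes known as male-biased, among them the major urinary proteins, which carry pheromones, rose in fewer cases than in controls. Of 24 tested 11 rose and 1 fell in Cre livers (median 0.93), whereas 18 rose and 1 fell in controls (median 2.21). Mup3 was at -5.02 and -4.06 at 1 week and at 2.91, 5.50 and 2.42 at 3 weeks (8.15 ± 0.90), against 6.93, 5.11 and 8.51 in control livers of 3 weeks. Mup2 was at -0.76 and -0.83 and then at 0.42, 4.16 and 0.23, which did not pass (adjusted p = 0.156), while controls of 3 weeks had 6.67, 3.23 and 8.58. In these genes 3-week Cre mouse 2 was the highest of its group and control mouse 2 the lowest of its own, so the groups overlapped. Cyp4a12a, a fatty acid hydroxylase gene, was at -2.20, -2.24 and -2.98 in Cre livers of 3 weeks against -1.01, -2.80 and -1.10 in controls. In 23 of the 24 genes the change was lower in Cre livers. Of these, 12 had an unadjusted p under 0.05, against 5.68% of all genes. That count was 3 within slides, 7 with slide as a block (1 higher), 5 without control mouse 1 of 1 week and 17 without control mouse 2 of 3 weeks. It was 8 or lower without any 1 of the 10 mice except that control mouse and 3-week Cre mouse 2. The 11 that rose in Cre livers were 7 without 1-week mouse 1. The Mup genes are near-identical copies and their probes are not independent. Of 19 female-biased genes 11 rose and 3 fell, for example Sult1e1, an oestrogen sulphotransferase, by 5.07 ± 0.72 (control 4.95), and 7 rose without 1-week mouse 2.

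Of 22 interferon response genes tested 8 rose and none fell (median 0.59), whereas 1 rose and 6 fell in controls (median -0.46). Ifi44 was at -2.41 in both 1-week livers and at -1.24, 0.38 and -0.18 at 3 weeks (2.06 ± 0.37, adjusted p = 0.000747, control 0.51). The interferon regulatory factor gene Irf7 was at -0.96 and -0.99 and then at -0.41, 1.10 and 0.79 (1.47 ± 0.37, control 0.11), and Bst2, which tethers enveloped virus particles, rose by 1.60 ± 0.16 (control 1.51). The median level of the list was 0.47 and 0.68 at 1 week and 0.73, 1.79 and 1.49 at 3 weeks, so mice 2 and 3 were high and mouse 1 lay near the younger livers. Mice 2 and 3 shared the litter name of 1-week mouse 2. In controls the medians were 1.50 and 0.95 and then 0.70, 0.51 and 0.75, with control mouse 1 of 1 week the highest.

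In all 22 interferon genes the change was higher in Cre livers, 14 of them at an unadjusted p under 0.05 against 4.48% of all genes, and none passed the adjustment. The count of 14 was 3 without control mouse 1 of 1 week, 6 within slides, 8 within the litter and 18 without 3-week Cre mouse 1. The 8 that rose became 4 and 5 without 1-week mouse 1 or 2, 13, 5 and 5 without 3-week mouse 1, 2 or 3, and 3 within slides.

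Of 16 macrophage markers tested 3 rose (18.8%, against 21.4% of all genes) and 1 fell (6.25%, against 19.1%) in Cre livers (median 0.04). In controls 1 rose and 11 fell (median -0.71), where 27.4% of all genes rose and 22% fell. Clec4f, a lectin of Kupffer cells, the macrophages of the liver, was at 3.83 and 3.65 and then at 4.18, 4.62 and 4.32 (0.63 ± 0.16, control 0.05, difference unadjusted p = 0.022). The endotoxin receptor gene Cd14 rose by 1.10 ± 0.34 (control -0.04) and the lysozyme gene Lyz2 fell by 1.56 ± 0.22 (control -2.20). Over all genes, 4.48% had a higher change in Cre livers at an unadjusted p under 0.05. All 16 had a higher change in Cre than in control livers, 9 at an unadjusted p under 0.05, 6 with slide as a block or without 3-week Cre mouse 2, and 3 without control mouse 1 of 1 week or without 1-week Cre mouse 2. Within the litter 1 gene had a higher and 1 a lower change at that p. No macrophage marker rose in Cre livers without 1-week mouse 2. The log2 summed signal of the list was 7.76 and 7.65 and then 7.44, 7.94 and 7.39 in Cre livers, and 8.20 and 7.79 and then 6.98, 7.22 and 7.02 in controls.

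**Figure D4:**
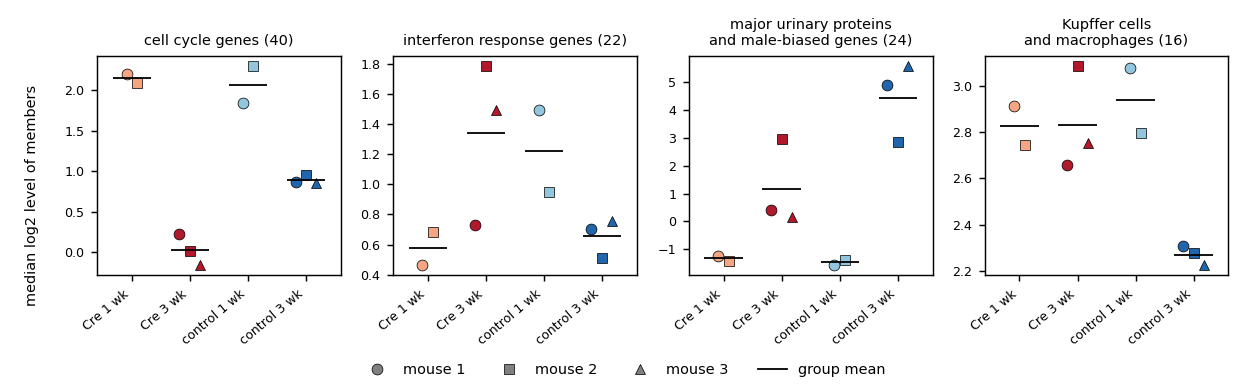
Median level (log2) of the members of 4 lists in each liver; symbols are mice and lines are group means. Cell cycle genes lie at -0.16 to 0.22 in 3-week Cre livers and at 0.85 to 0.96 in controls of that age; interferon genes are high in 3-week Cre mice 2 and 3; male-biased genes vary from 0.15 to 2.95 in 3-week Cre livers; Kupffer cell genes lie at 2.66 to 3.08 in 3-week Cre livers and at 2.23 to 2.31 in controls of that age.

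The 3 Cre livers of 3 weeks differed among themselves in some genes, which were chosen after their values were seen and form no fixed list. Thrsp, a lipogenic gene induced by carbohydrate, was at 2.45, 6.55 and 3.29 in mice 1 to 3, and the fatty acid synthase gene Fasn at -1.80, 0.36 and -1.21. The iron hormone gene Hamp, encoding hepcidin, was at 5.64, 0.97 and 6.55, and the histidase gene Hal at 5.87, 3.61 and 4.95. Mouse 2 was highest for the first pair and lowest for the second. Igfbp1, which is repressed by insulin, was at 9.46, 7.43 and 9.26. Controls of 3 weeks also varied, with control mouse 3 highest for Thrsp (7.21) and Fasn (0.87) and lowest for Igfbp1 (6.60). Cre mouse 2 also had the highest level of the antigen presentation genes H2-Ab1 (3.69, 5.75 and 3.88) and Cd74 (1.95, 4.19 and 2.27), and the lowest Cdh1. Without this mouse, 3882 genes rose and 3358 fell in Cre livers.

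**Figure D5:**
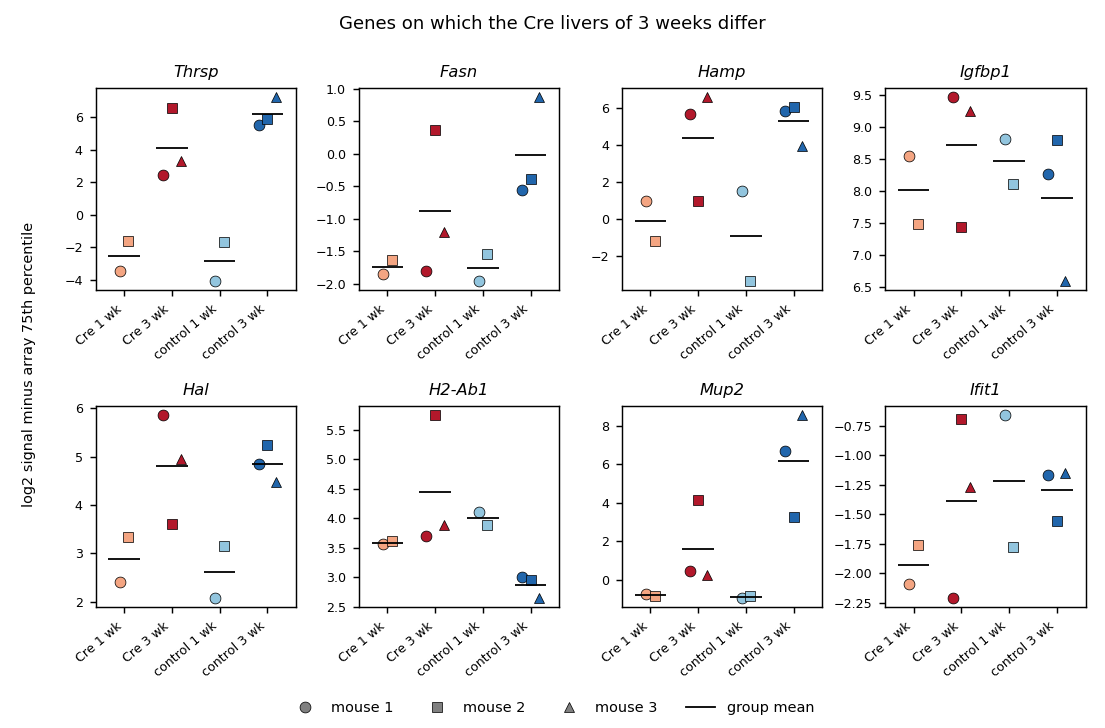
Level of 8 genes in each Cre and control liver of 1 and 3 weeks (log2 signal minus the array's 75th percentile; symbols are mice, lines are group means), chosen after their values were seen. In 3-week Cre mouse 2 (square) Thrsp is at 6.55 against 2.45 and 3.29 in the other Cre livers of that age, Hamp at 0.97 against 5.64 and 6.55, and H2-Ab1 at 5.75 against 3.69 and 3.88.

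The following genes were among those with the smallest p-values for a change that differed between the genotypes, all with an adjusted p of 0.298. The aldehyde dehydrogenase gene Aldh1a7 rose in Cre livers from 1.75 and 1.94 to 3.31, 3.53 and 3.44. In controls it rose from 0.97 and 1.79 to 4.99, 4.63 and 5.48 (difference -2.07 ± 0.34, unadjusted p = 4.2e-05). The transducin gene Gnat2 fell from -1.25 and -0.91 to -3.08, -2.83 and -2.99, whereas controls lay between -1.61 and -1.23 (difference -1.64 ± 0.26, unadjusted p = 3.45e-05). The glucuronosyltransferase gene Ugt2b5 rose by 0.38 ± 0.12 against 1.27, and the mitotic kinase gene Nek2 fell by 1.19 ± 0.16 against a change of 0.07 in controls. Rbm44 is given no size, since it was not well above background in the Cre or control livers of 3 weeks. For the other 4 genes the Cre livers of 3 weeks lay below all controls of that age. In the other direction, Tspoap1, Rab7b, Sh3tc1 and Tmem171 had differences of 1.01 ± 0.18, 1.06 ± 0.21, 0.73 ± 0.15 and 1.93 ± 0.40.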

How the data were processed

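Gene expression in 16 male mouse livers was measured on one-colour Agilent arrays, with 1 mouse per array. The deposited scanner intensity is the processed signal, background-subtracted within each array by Feature Extraction, per the file headers. The authors also deposited log2 values of unstated scaling, used here only as an alternative. From the intensities, log2 minus the array's 75th percentile over non-control spots was computed. Of 55681 probes, 26582 were matched to 1 gene by accession and 29099 were left unnamed. Probes were kept where every array of at least 1 of the 6 groups had them well above background. The probe with the highest mean over all 16 arrays stood for its gene. A linear model with 1 mean for each of 6 groups was fitted with limma 3.58.1 (R 4.3.3), with Benjamini-Hochberg adjustment over all genes. Bounds compare with the lowest signal well above background. The test was checked on simulated data.

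Genes were named by a rule: Cdh1, the 12 largest rises and falls, the 6 largest lower bounds each way, the 5 smallest p-values each way for the difference, and up to 6 called members each way per list. Results on 4 genes that this rule names are not reported here. Genes named outside it were chosen after their values were seen. They were Alb, Ttr, Bex1, Elane, Lcn2, the globins, Cyp7a1, Glul, Ctnnb1, Mki67, Mcm2, Cdc20, Foxm1, Ccnd1, E2f8, Tyms, Mup2 and Cyp4a12a. The same holds for the genes of the paragraph on how the older Cre livers differed among themselves. The lists and comparisons were chosen with earlier results of these data known.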

Additional observations from a re-analysis of the deposited data

Results flagged for a closer look

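In 4 named genes all Cre livers of 3 weeks lay on one side of both Cre livers of 1 week, while all control livers of 3 weeks lay on the opposite side of theirs. The change in Cre livers minus that in controls was -0.69 for the homocysteine methyltransferase gene Bhmt2 (adjusted p = 0.411) and -1.0 for the protein disulphide isomerase gene Pdia4 (0.411). It was 0.73 for Sh3tc1 and 1.93 for Tmem171 (both 0.298), so none passed limma's adjusted test of the difference. Sh3tc1 and Tmem171 had been named for the small p-value of this difference, so their pattern is no separate result. How many of all genes show the pattern was not counted. The median level of 2 gene lists had the same pattern, with a median difference of 0.27 for endothelial genes and 1.2 for interferon response genes. The median of the endothelial members' own changes was -0.02 in Cre and -0.37 in control livers, so by that measure they did not rise in Cre livers. For interferon genes the nearest Cre livers of the 2 ages lay at 0.68 and 0.73. The difference of a list median was not tested.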

How the results depend on the processing

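The counts of 3708 risen and 3307 fallen genes were 1991 and 1807 within the mice of 1 litter name, and between 2418 and 3882 and between 2255 and 3358 with 1 mouse left out. With all probes in place of genes they were 7103 and 5500. Quantile normalization gave 3091 and 3958, a share of rises of 43.9% against 52.9%. The difference between genotypes, 0 genes either way, had 0 higher and 2 lower probes over all probes. With 1 mouse left out it had 0 to 1 higher and 0 to 2 lower genes. Of 337 results on named genes 219 kept direction and call in every alternative. With litter as a block 3155 genes rose and 2755 fell. The labels pair no mice by replicate number. Precision is limited by 2 and 3 mice per group, by signal near background for low genes, and by near-identical gene copies.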

Other observations

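Members of several smaller groups were called in the Cre livers, beside 21.4% of all genes that rose and 19.1% that fell. Of 20 immediate early genes, which respond to handling and dissection as well as to growth signals, 6 rose (30%) and 1 fell (median 0.46, control -0.20), and 3 rose without 1-week mouse 2. Zfp36, which destabilises cytokine messages, rose from -1.05 and -1.35 to 0.89, 0.99 and 0.74 (2.08 ± 0.18, control 2.00), whereas Fos had a change of 1.21 ± 0.36 in Cre and -0.66 in control livers (difference unadjusted p = 0.003). Of 21 cytokine and chemokine genes 6 fell (28.6%) and 2 rose, and 3 fell without either 1-week mouse or within slides and 2 within the litter. The chemokine gene Ccl4 fell by 1.54 ± 0.24 and the B cell chemokine gene Cxcl13, well above background in 1 of the 2 younger livers, rose by 2.71 ± 0.56. Of 16 genes of cell cycle brakes 5 rose (31.2%) and 3 fell (18.8%): Gadd45g rose by 3.55 ± 0.70, Trp53inp1, a p53 target, by 2.09 ± 0.36, and Gadd45a fell by 2.66 ± 0.48.

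Of 24 retinoid genes 7 rose (29.2%) and 3 fell, and 4 rose without 1-week mouse 2. Retsat, which saturates retinol, rose from 3.14 and 2.61 to 5.32, 5.23 and 5.43 (2.45 ± 0.26, control 2.21). Of 15 metal-handling genes 6 rose (40%) and 4 fell (26.7%), with 2 falling without 1-week mouse 2, 3 rising and 2 falling within the litter, and 2 rising with quantile normalization. The ferritin gene Fth1 rose by 0.66 ± 0.12 and the copper pump gene Atp7a fell by 0.75 ± 0.13. Of 15 genes of endoplasmic reticulum stress 2 rose and 2 fell (13.3% each, below the shares over all genes), among them Herpud1, of protein degradation, by 2.04 ± 0.15 upwards, and the asparagine synthetase gene Asns, by 2.71 ± 0.90 downwards. No gene of this list fell without 1-week mouse 1 or 1-week mouse 2. Of 12 genes of pancreas, gut and kidney 2 rose and 1 fell (16.7% and 8.33%), and of 7 genes of muscle and fat 1 rose and 1 fell (14.3% each), again below the shares over all genes.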
